A study of Saccharomyces cerevisiae with 60 samples.

Results

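The regions described here are the intergenic gaps between divergent genes of the budding yeast Saccharomyces cerevisiae, that is, gaps whose left-hand gene is read to the left and whose right-hand gene is read to the right, so that the gap holds the start of both genes. From the R64 annotation of the S288C reference genome, 1169 such gaps of 200 bp or more were kept, out of 8913 segments in all that also comprised 2170 tandem gaps, 703 convergent gaps and 4871 gene bodies. Before the limits were applied there were 1417 divergent gaps. Of these, 58 lay within 20000 bp of a chromosome end, and 190 lay on the right-hand stretches of chromosomes IV and XV, which carry the integrated control constructs and were left out. Each gap is named by its left and right flanking gene. The 1169 gaps were 201 to 7420 bp long with a median of 554 bp, against a median of 418 bp for tandem and 321 bp for convergent gaps, and 92 of them (7.87%) held an annotated noncoding RNA gene, mostly a tRNA gene (74 gaps). A gap between divergent genes works as a promoter on both sides. Nucleosomes are scarce in such promoters, and sequence-specific transcription factors, the general transcription machinery and, at some of them, the origin recognition complex reach the DNA there. Fkh1 is a forkhead transcription factor that binds promoters of genes expressed around mitosis, among them the CLB2 cluster, and also binds near a set of replication origins.

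Protein occupancy was measured by chromatin immunoprecipitation and sequencing (ChIP-seq) in 60 libraries, 3 for each of 20 groups. All strains descend from the W303 strain SSY161, which is MATa and lacks BAR1, and were grown in rich medium (YEPD) at 23 °C and fixed with formaldehyde. In the tagged strains of interest, Fkh1 carried a MYC or FLAG tag, Orc1 (the largest subunit of the origin recognition complex) or Mcm4 (a subunit of the replicative helicase) carried an HA tag, or Sir2 (the silencing histone deacetylase) carried a FLAG tag. In fkh1-dbm-MYC and fkh1-dbm-FLAG the tagged Fkh1 had a mutated DNA-binding domain. The MOP, FLOP and HOP controls expressed bacterial LexA fused to MYC, FLAG or HA, from the ADH1 promoter in MOP and HOP and from the TEF1 promoter in FLOP, together with lexA sites integrated next to ADE2 or TRP1. Strains written Fkh1-MYC (MOP), Fkh1-FLAG (FLOP), Orc1-HA (HOP), Mcm4-HA (HOP) and Sir2-FLAG (FLOP) carried the tagged protein and the LexA construct together, and Fkh1-MYC, Fkh1-FLAG and the dbm strains carried no LexA construct. Untagged SSY161 was precipitated with each antibody. G1 groups were held in G1 with α-factor, the mating pheromone, for about 3.5 h per the labels, and the other groups were unsynchronized. The arrest time in the labels differs slightly from the one in the study's methods. Anti-HA was a mixture of 12CA5 and 16B12 for unsynchronized cells and 12CA5 alone in G1, so that unsynchronized and G1 anti-HA libraries differ in antibody as well as in cell cycle. The strain numbers of Fkh1-FLAG (FLOP) and of Mcm4-HA (HOP) differ between the labels and the study's strain list, and the labels were followed.

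The designed DNA sequences below bear on the results and come from the study's primer list. The TEM1 probe was the DNA used in the study's gel-shift assay of Fkh1 binding and is named after TEM1, whose promoter lies in a gap that stood near the top of every Fkh1 comparison. Capitals mark the forkhead motif GTAAACA, at bases 11 to 17 counted from the 5′ end. The fkh1-dbm primer carries the mutations of the DNA-binding mutant, and capitals mark its 10 changed bases. They encode the protein changes N349A, R352A, H353A, S356A and L357A.
TEM1 probe: agcaaaaaagGTAAACAagaaaaggaa
fkh1-dbm primer: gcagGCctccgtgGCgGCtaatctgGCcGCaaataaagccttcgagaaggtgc

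Values are given on a signal scale. Reads had been counted in 50 bp windows, the counts were smoothed with a moving median over 10 windows, and the mean over a gap was divided by the 20th percentile of all smoothed windows of the library, so that a signal of 1 is the level that 20% of that library's windows do not exceed. Tests used the unsmoothed counts summed over each segment (the quasi-likelihood test of edgeR, with p-values adjusted by the Benjamini-Hochberg method over all segments), and a gap was called where the adjusted p was under 0.05 and the log2 fold change was at least 1 in size. Summed window counts ran from 2116658 to 44263661 per library with a median of 18237294, and the 20th percentile lay at 6 to 128 counts per window. Replicates of a group were correlated across gaps on the log2 of unsmoothed mean counts over the 20th percentile. The correlation was between 0.318, for untagged anti-MYC, and 0.961, for Fkh1-MYC. Of the 1169 gaps, 1168 had enough counts to be tested, and VID28-SNL1 had not.

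In nearly all libraries the divergent gaps had a lower median signal than all segments together. The log2 ratio of their median signal to the median over all segments was below 0 in 58 of 60 libraries and, averaged by group, in 19 of 20 groups. The values were lowest in HOP G1, at −0.40, −0.40 and −0.38 in its 3 libraries. The exception was Fkh1-MYC (MOP) G1, with −0.04, 0.02 and 0.02. Tandem gaps were likewise below 0 in every group, at a mean of −0.34 in HOP G1 and −0.04 in Fkh1-MYC (MOP) G1, and gene bodies make up most of the segments. This order is a description, and no test was made of it. With the mean over gaps, still set against the median over all segments, only 9 groups were below 0. Without RNH203-TAR1, the gap at the ribosomal DNA that had the highest signal, 15 groups were. A mean set against a median is not a like comparison, since a few high gaps raise the mean. These counts therefore cannot decide whether the order depends on the summary used.

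Around the gap centre, the unsmoothed window signal, taken as the median over gaps, formed a trough. In HOP G1 the median signal was 0.838 at the centre, against 1.5 at 1000 bp to either side, and in MOP it was 1.03 at the centre against 1.23 at 1000 bp. The trough was shallower where Fkh1-MYC was precipitated. The centre stood at 1.08 in Fkh1-MYC, against 0.938 in fkh1-dbm-MYC, and at 1.34 in Fkh1-MYC (MOP) G1, against 1.16 in MOP G1. Tandem gaps, which hold 1 gene start, showed the same pattern, with 0.838 at the centre and 1.49 at 1000 bp in HOP G1, and with a centre of 1.08 in Fkh1-MYC, against 0.965 in fkh1-dbm-MYC. Over convergent gaps, which hold gene ends and no gene start, the Fkh1-MYC centre was 1.1 and the fkh1-dbm-MYC centre was 1.08. In G1 the tagged centre was the lower one over convergent gaps, at 1.06 in Fkh1-MYC (MOP) G1 against 1.29 in MOP G1. With Sir2-FLAG (FLOP) G1 the centre of divergent gaps stood at 1.04, against 0.998 in FLOP G1, and that of convergent gaps at 0.699, against 0.998 in FLOP G1.

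**Figure D1:**
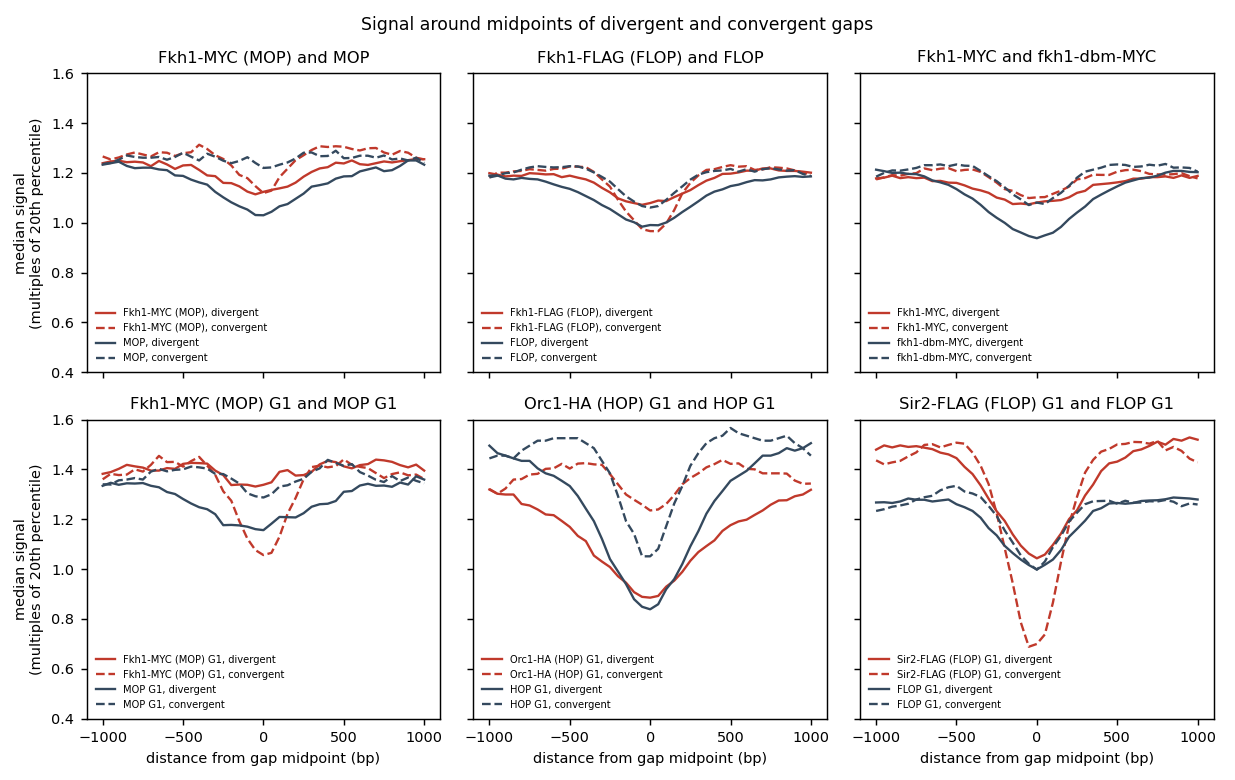
Median unsmoothed ChIP signal (multiples of the library's 20th percentile, y axis) against distance from the gap centre (bp, x axis) for tested and control groups, with divergent gaps as solid and convergent gaps as dashed lines. Fkh1-MYC lies above fkh1-dbm-MYC at the centre of divergent gaps (1.08 and 0.938), and Sir2-FLAG (FLOP) G1 falls to 0.699 in convergent gaps.

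The first question put to the data was whether the expression of a LexA fusion alone changed the signal in divergent gaps. Between MOP and untagged anti-MYC no gap was called by edgeR in either direction, where 0.0561% of all segments were called higher and 0.0561% lower, 58 gaps had an unadjusted p below 0.05 and DESeq2 called 0. Without untagged anti-MYC replicate 3, 1 gap was called, and untagged anti-MYC was also the group with the lowest correlation between replicates. Between HOP and untagged anti-HA no gap was called higher (0.0337% of all segments) and 2 were called lower (0.213%), while 200 had an unadjusted p below 0.05. DESeq2 called the same numbers, 0 and 2. The 2 were RNH203-TAR1, whose change of −1.17 ± 0.14 was short of the call without HOP replicate 2 (−0.96), and TFC3-NUP60. TFC3-NUP60 had a signal of 1.31, 1.01 and 1.65 in HOP, against 3.78, 3.998 and 2.96 in untagged anti-HA, a log2 fold change of −1.47 ± 0.10 (SE, n = 3 each) with no overlap between the groups.

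Against untagged anti-FLAG, FLOP was called higher in 15 gaps, a share of 1.28% that was near the 1.29% of all segments, and lower in 3 (1.09% of all segments). The numbers called for the 3 constructs were not tested against each other, and the biological coefficient of variation was 0.0724 in the FLAG comparison, 0.0875 in the HA comparison and 0.152 in the MYC comparison. The largest rise was in YLR012C-GAT3, which holds the promoter of the GATA-family gene GAT3. Its signal was 4.002, 4.42 and 4.14 in FLOP, against 0.998, 0.985 and 0.995 in untagged anti-FLAG (log2 fold change 2.09 ± 0.06). YLR012C-GAT3 reached 6.76, 7.90 and 7.07 in FLOP G1, while all 3 MOP libraries together averaged 1.03. PDI1-YCL042W, beside the gene of protein disulfide isomerase, had 1.40, 1.59 and 1.65 in FLOP, against 0.493, 0.394 and 0.371 in untagged anti-FLAG (1.92 ± 0.14). XBP1-SGA1 and ARB1-PHM8 also rose, by 1.444 and 1.497 on the log2 scale. The 3 libraries of FLOP lay above those of untagged anti-FLAG in each of these gaps. The gaps were picked for the same direction in all library pairs, so this separation only describes them. In the other direction, SEC59-BUD22, which holds 7 snoRNA genes, had 1.47, 1.36 and 1.25 in FLOP, against 3.99, 3.56 and 4.25 in untagged anti-FLAG (−1.53 ± 0.06). The gaps called higher in FLOP had a median signal of 2.04 in that control and 0.889 in untagged anti-FLAG. This list was chosen by the same difference, so the medians only describe it. In these gaps a FLAG-tagged protein set against FLOP is set against a control that was called higher than untagged anti-FLAG.

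PXP2-NNF1, between a peroxisomal protein gene and the kinetochore gene NNF1, was among the gaps called higher in FLOP. Its signal was 2.36, 2.55 and 2.43 in FLOP, against 0.973, 0.923 and 1.03 in untagged anti-FLAG (log2 fold change 1.299 ± 0.106). Fkh1-FLAG gave 3.09, 3.54 and 3.896 there, against 0.741, 0.896 and 0.827 in fkh1-dbm-FLAG (2.39 ± 0.11). With FLOP as the control, Fkh1-FLAG (FLOP) averaged 4.03 against 2.44 in FLOP, and the log2 fold change was 0.80, short of the call. The tested strains differ between these comparisons, since Fkh1-FLAG (FLOP) carries the LexA construct and Fkh1-FLAG does not. The cause of the difference in fold change was not tested. In PXP2-NNF1 Fkh1-MYC (MOP) was called against MOP, by 2.37 ± 0.16.

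The central comparisons asked where Fkh1 itself was found, in unsynchronized cells, with 2 tags and 2 kinds of control. Fkh1-MYC (MOP) was called higher than MOP in 84 divergent gaps, 7.19% of those tested, where 3.40% of all segments were called higher, and lower in 1 gap (0.112% of all segments), YAR035C-A-SWH1, which was lost without MOP replicate 3 or Fkh1-MYC (MOP) replicate 2, while 3 gaps were called lower without MOP replicate 2. In Fkh1-FLAG (FLOP) against FLOP, 48 gaps were called higher (4.11%, against 1.79% of all segments) and none was called lower (0.0%). Against the binding mutant, Fkh1-MYC was called higher than fkh1-dbm-MYC in 106 gaps (9.08%, against 4.49% of all segments), and Fkh1-FLAG was called higher than fkh1-dbm-FLAG in 66 (5.65%, against 2.26%). No gap was called lower in either (0.0% of all segments each). DESeq2 also called 0 lower in these 3 comparisons, in which 456, 602 and 471 gaps had an unadjusted p below 0.05 in either direction. In all 4 comparisons the share called was highest in divergent gaps and lowest in convergent gaps or gene bodies. For Fkh1-MYC (MOP) against MOP it was 5.49% in tandem gaps, 2.14% in convergent gaps and 1.75% in gene bodies. The gaps that were called had a median signal of 2.57 in Fkh1-MYC (MOP), with a range of 1.46 to 14.6, against a median of 1.06 in MOP.

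IDI1-HOS3 had the largest change with MYC. It lies on chromosome XVI at 328731 to 329605, between IDI1, which encodes isopentenyl diphosphate isomerase of the sterol pathway, and HOS3, which encodes a histone deacetylase. Its signal was 14.8, 13.2 and 16.0 in Fkh1-MYC (MOP), against 1.19, 1.28 and 1.04 in MOP, a log2 fold change of 3.81 ± 0.10. In Fkh1-MYC it was 12.2, 12.8 and 16.2, against 0.739, 0.787 and 0.873 in fkh1-dbm-MYC (4.33 ± 0.07). Every library with intact Fkh1-MYC thus lay far above every control library in IDI1-HOS3, a gap picked for the same direction in all library pairs. With FLAG the signal was 3.60, 4.13 and 5.61 in Fkh1-FLAG (FLOP), against 0.722, 0.754 and 0.762 in FLOP (2.79 ± 0.11).

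TEM1-RPS1B was near the top with both tags. This gap, on chromosome XIII at 145877 to 146481, holds the promoters of TEM1, the GTPase at the head of the mitotic exit network, and of the ribosomal protein gene RPS1B, and it is the gap the probe printed above is named for. Its signal was 6.997, 6.42 and 6.77 in Fkh1-MYC (MOP), against 1.13, 0.765 and 1.18 in MOP (log2 fold change 2.98 ± 0.12). In Fkh1-FLAG (FLOP) it was 4.38, 5.096 and 7.02, against 0.647, 0.843 and 0.861 in FLOP (2.97 ± 0.13). Against the binding mutants the changes in TEM1-RPS1B were 3.23 ± 0.06 with MYC and 2.83 ± 0.08 with FLAG, and the difference between tags was not tested. No tested and control libraries overlapped in any of the 4 comparisons, each of which picked this gap for such separation. The ratio of tagged to control signal along TEM1-RPS1B peaked in the same 50 bp window, bases 146001 to 146050, for Fkh1-MYC (MOP) over MOP, Fkh1-FLAG (FLOP) over FLOP and Fkh1-MYC over fkh1-dbm-MYC.

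DSE1-RSP5 had a fold change with MYC that was well above that with FLAG. The gap lies on chromosome V at 409064 to 410188, between DSE1, a daughter-cell gene, and RSP5, an essential ubiquitin ligase gene. It had a signal of 9.67, 8.32 and 10.4 in Fkh1-MYC (MOP), against 1.18, 1.21 and 1.37 in MOP (log2 fold change 2.97 ± 0.10). In Fkh1-FLAG (FLOP) it had 2.96, 3.30 and 3.94, against 1.40, 1.22 and 1.13 in FLOP (1.51 ± 0.09). Both changes in DSE1-RSP5 were called, and the difference between tags was not tested.

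Other gaps with large changes belonged to varied genes. SSO2-ADD37, beside a gene of the secretory vesicle fusion machinery, changed by 3.02 ± 0.15 with MYC and 2.19 ± 0.12 with FLAG against the LexA controls. ALG5-NEW1 changed by 2.73 ± 0.13 and 2.35 ± 0.13. CDC10-MRPL32, between a septin gene and the gene of a mitochondrial ribosomal protein, changed by 2.57 ± 0.18 and 2.17 ± 0.13. In each of these gaps all 3 tagged libraries lay above all 3 controls with both tags, which largely follows from how the gaps were picked.

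**Figure D2:**
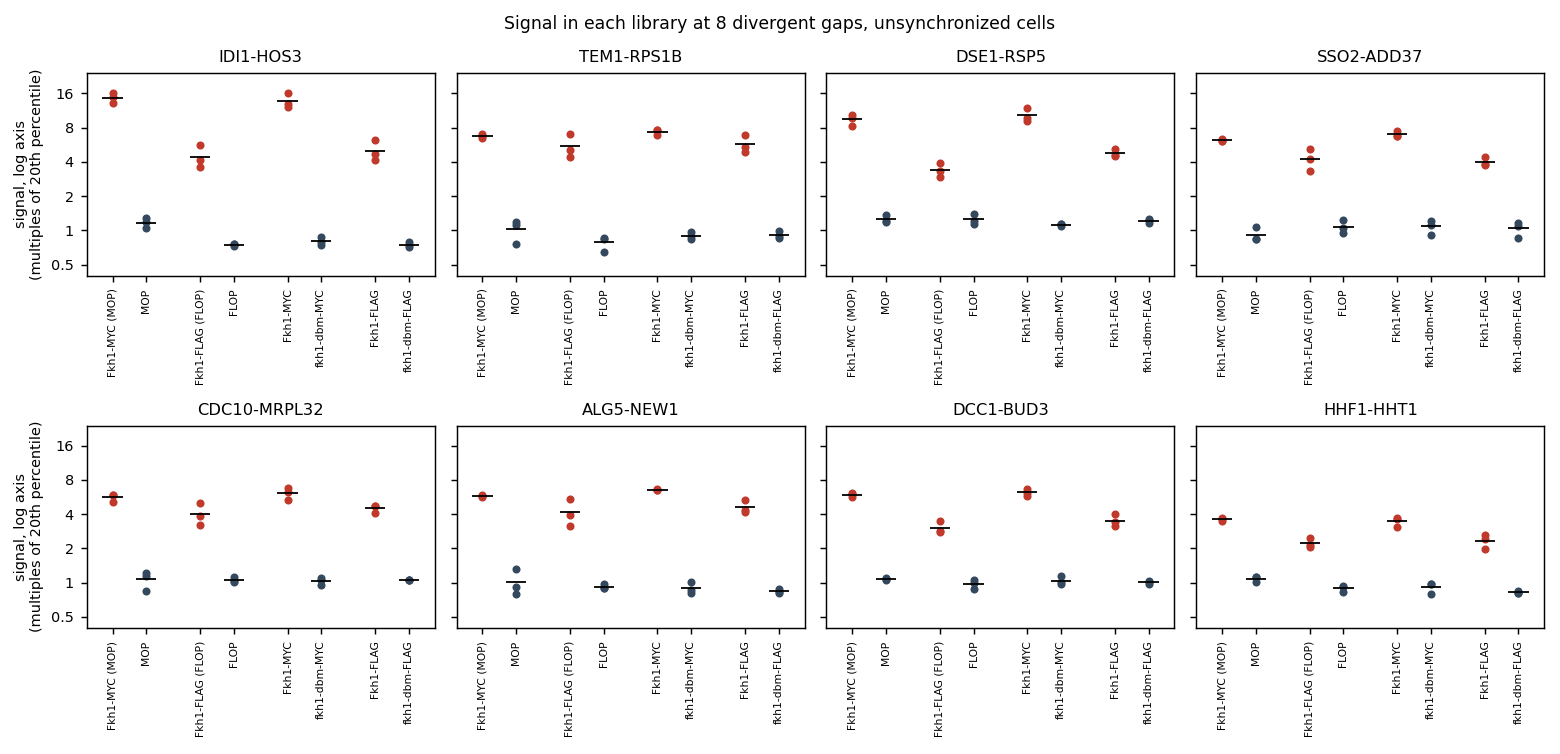
Signal (multiples of the library's 20th percentile, log axis) of every library in 8 divergent gaps for the 4 unsynchronized Fkh1 comparisons, with each tested group left of its control, points for libraries and bars for means. In IDI1-HOS3 the Fkh1-MYC (MOP) libraries sit between 13.2 and 16.0 and the MOP libraries between 1.04 and 1.28.

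The 4 unsynchronized comparisons share no libraries, and their lists overlapped in part. Of the 84 gaps called with Fkh1-MYC (MOP) and the 48 called with Fkh1-FLAG (FLOP), 46 were in both, 54.8% of the MYC list and 95.8% of the FLAG list. Against the binding mutants 64 gaps were shared, 60.4% of the 106 and 97.0% of the 66. For MYC, 82 gaps were called against both kinds of control, 97.6% of the 84 and 77.4% of the 106. The log2 fold changes of the 1168 gaps correlated across gaps with r = 0.858 between the tags on LexA controls and r = 0.94 between the tags on mutant controls. These are descriptions across gaps, which are not independent replicates. Over the 84 gaps called with MYC the median log2 fold change was 1.42 with MYC and 1.06 with FLAG, and over the 48 called with FLAG it was 1.67 with MYC and 1.303 with FLAG. Each list was chosen by the changes it summarises, and the difference between tags was not tested.

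A set of 43 gaps was called in all 4 comparisons, 21 in 3, 23 in 2 and 23 in 1. Thus 110 gaps were called at least once and 1059 never, among them VID28-SNL1, which was not tested. Neither these counts nor the overlaps above were made over all segments. Whether such overlap is particular to divergent gaps is therefore not known. Within the 43, the median log2 fold change was 1.76 and 1.46 against the MOP and FLOP controls, and 2.02 and 1.59 against fkh1-dbm-MYC and fkh1-dbm-FLAG. Inside these gaps the window with the highest ratio to the control (the summit) for Fkh1-MYC (MOP) and that for Fkh1-FLAG (FLOP) were a median of 50 bp apart, within 50 bp in 28 gaps and within 100 bp in 39, and never more than 200 bp. Summits were sought only within each gap, so gap length bounds this distance, and some gaps are short (NBL1-RPN10 has 219 bp). The distance from the Fkh1-MYC (MOP) summit to the nearer of the flanking genes ran from 47 to 1174 bp with a median of 162 bp. Gaps called for Fkh1-MYC (MOP) had a median length of 571.5 bp, and those not called 554 bp. Gaps that hold a tRNA gene were called in 3 of 74 cases with MYC and in 0 of 74 with FLAG, and gaps with no noncoding RNA gene in 80 of 1076 and 47 of 1076.

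**Figure D3:**
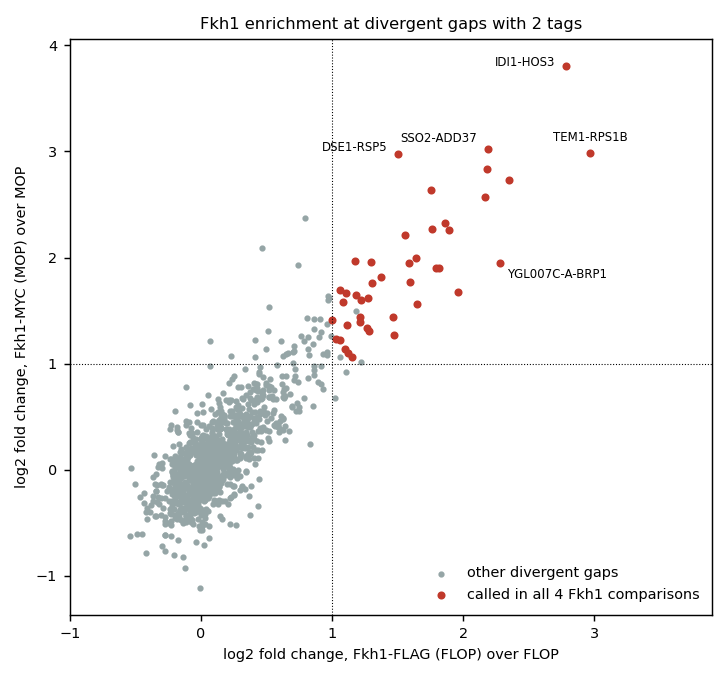
Log2 fold change of Fkh1-FLAG (FLOP) over FLOP (x axis) and of Fkh1-MYC (MOP) over MOP (y axis), with a point for each of 1168 divergent gaps and the 43 gaps called in all 4 unsynchronized comparisons in red. The points lie along a line (r = 0.858), and TEM1-RPS1B and IDI1-HOS3 lie at the upper right.

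The CLB2 cluster is a group of genes whose transcripts peak at mitosis. Of its 13 divergent gaps, 6 were called for Fkh1-MYC (MOP), 5 for Fkh1-FLAG (FLOP), 7 for Fkh1-MYC against fkh1-dbm-MYC and 5 for Fkh1-FLAG against fkh1-dbm-FLAG. In the same order, 7.19%, 4.11%, 9.08% and 5.65% of all divergent gaps were called, and 3.40%, 1.79%, 4.49% and 2.26% of all segments. The median log2 fold change of the 13 was 0.95, 0.72, 1.11 and 0.70, where the median over all divergent gaps was 0.10, 0.08, 0.17 and 0.11. TEM1-RPS1B, DCC1-BUD3, OCA5-WSC4, MTC6-SPO12 and JSN1-BUD4 were called in all 4. DCC1-BUD3, at the gene of a bud-site selection protein, had 5.68, 5.95 and 6.13 in Fkh1-MYC (MOP), against 1.083, 1.047 and 1.097 in MOP (2.63 ± 0.12). MTC6-SPO12, at the gene of a mitotic exit regulator, had 3.19, 3.21 and 3.75 in Fkh1-MYC (MOP), against 1.34, 0.862 and 1.24 in MOP (1.65 ± 0.14). VOA1-CLB1, at the gene of a B-type cyclin, was called with MYC only, with 1.12 ± 0.09 in MYC and 0.71 ± 0.06 in FLAG against the LexA controls, and that difference was not tested. The list was chosen with earlier results of these data known.

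Histone genes, with the variant gene HTZ1 and the linker histone gene HHO1 counted in, gave 1 called gap of 5 in each unsynchronized Fkh1 comparison. Over all divergent gaps 7.19% were called with Fkh1-MYC (MOP) and 4.11% with Fkh1-FLAG (FLOP), and over all segments 3.40% and 1.79%. HHF1-HHT1, the shared promoter of a histone H4 and a histone H3 gene, had 3.63, 3.45 and 3.69 in Fkh1-MYC (MOP), against 1.12, 1.12 and 1.01 in MOP (log2 fold change 1.76 ± 0.13). In Fkh1-FLAG (FLOP) it had 2.06, 2.15 and 2.47, against 0.830, 0.932 and 0.910 in FLOP (1.31 ± 0.09), and it was called in both mutant comparisons as well. The other gap of a histone H3 and H4 pair, HHT2-HHF2, was not called in any.

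The remaining cell cycle and mating lists are small, and their counts stand beside shares of 7.19% of divergent gaps and 3.40% of all segments for Fkh1-MYC (MOP), and 4.11% and 1.79% for Fkh1-FLAG (FLOP). Of 15 gaps at genes of the G1 factors SBF and MBF, SWE1-MNN5 and CTF18-SEC14 were called with Fkh1-MYC (MOP) and none with Fkh1-FLAG (FLOP), while CTF18-SEC14 was also called against fkh1-dbm-FLAG (1.02). Of 7 gaps at genes of the pre-replicative complex, which licenses origins, only ORC6-SET1 was called, with log2 fold changes of 1.22, 1.06, 1.302 and 1.05 in the 4 comparisons. Of 8 gaps at mating pheromone genes, PEX34-KAR4 and KAR3-RRP15 were called with Fkh1-MYC (MOP) and none with Fkh1-FLAG (FLOP), at the genes of a pheromone-response transcription factor and a kinesin needed for karyogamy. KAR3-RRP15 was also called against fkh1-dbm-FLAG (1.25). Of 8 gaps at genes of cell cycle transcription factors and regulators, FKH1-ASG1, FKH2-YNL067W-B and TGL5-WHI5 were called with MYC and none with FLAG. FKH1-ASG1, the promoter of FKH1 itself, had 2.1, 1.72 and 1.997 in Fkh1-MYC (MOP), against 0.826, 1.03 and 1.02 in MOP (1.06 ± 0.18). In Fkh1-FLAG (FLOP) it had 1.05, 1.20 and 1.39, against 1.102, 0.843 and 0.829 in FLOP (0.41 ± 0.13), where the groups overlapped. In these strains the tag is carried by FKH1, and whether this altered the reads over its promoter was not tested. Against fkh1-dbm-MYC, which also carries its tag at FKH1, Fkh1-MYC was called in FKH1-ASG1 (1.18). Fkh1-FLAG was not called there against fkh1-dbm-FLAG.

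Ribosomal protein genes are among the most highly transcribed genes. Of their 61 gaps, 5 were called with Fkh1-MYC (MOP) and 4 with Fkh1-FLAG (FLOP), and the median log2 fold change was 0.10 with MYC and 0.21 with FLAG, where all divergent gaps had 0.10 and 0.08. In these comparisons 7.19% and 4.11% of all divergent gaps were called, and 3.40% and 1.79% of all segments. The gap RPS22A-RPL39, with a ribosomal protein gene on either side, was called in all 4. Of 6 gaps at glycolytic genes, CYC3-CDC19, the promoter of pyruvate kinase, was called with both tags (1.34 ± 0.10 and 1.27 ± 0.08). GAL10-GAL1, the galactose promoter that is repressed in glucose medium, had 0.764, 0.821 and 1.17 in Fkh1-MYC (MOP), against 1.03, 1.19 and 1.06 in MOP, had means between 0.698 and 1.27 over the 20 groups and was not called in any comparison.

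In cells arrested in G1, Fkh1-MYC (MOP) was called higher than MOP G1 in 128 of 1168 divergent gaps (against 6.21% of all segments) and lower in 6 (0.898%). Of the 128 gaps, 74 were also called in unsynchronized cells, 57.8% of the G1 list and 88.1% of the 84. The median signal of the 128 was 3.23 in Fkh1-MYC (MOP) G1, against 1.13 in MOP G1. In Fkh1-FLAG (FLOP) against FLOP G1, 18 gaps were called higher (1.54%, against 0.606% of all segments) and none lower (0.0%). DESeq2 called 0 lower as well, and 200 gaps had an unadjusted p below 0.05 in either direction. All 18 were among the 128 called with MYC, 14.1% of the MYC list. Over the 128, a list chosen by the MYC change, the median log2 fold change was 1.49 with MYC and 0.47 with FLAG, and over the 18, chosen by the FLAG change, it was 2.93 with MYC and 1.19 with FLAG.

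Several of the gaps described above for unsynchronized cells were called in G1 with both tags. IDI1-HOS3 changed by 4.04 ± 0.15 with MYC and 2.04 ± 0.13 with FLAG, SSO2-ADD37 by 3.54 ± 0.15 and 1.52 ± 0.15, and TEM1-RPS1B by 3.07 ± 0.14 and 2.03 ± 0.15. In SSO2-ADD37 the signal was 10.9, 14.7 and 15.6 in Fkh1-MYC (MOP) G1, against 1.42, 1.34 and 1.53 in MOP G1. CDC10-MRPL32 had 6.08, 6.86 and 7.03 in Fkh1-MYC (MOP) G1, against 0.736, 0.600 and 0.927 in MOP G1 (3.54 ± 0.23). None of these groups overlapped, which again largely follows from how the gaps were picked. Other gaps were called with both tags in unsynchronized cells but in G1 with MYC only: with FLAG in G1, YGL007C-A-BRP1 had 0.97 ± 0.24 and YGR050C-FMP48 had 0.82 ± 0.10, short of the call.

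Among the lists, which stand beside 128 of 1168 divergent gaps and 6.21% of all segments with MYC, and 1.54% and 0.606% with FLAG, 5 of the 13 CLB2 cluster gaps were called with MYC in G1 and 2 with FLAG, and their median log2 fold change was 0.94 and 0.24. Of the SBF and MBF gaps 4 of 15 were called with MYC, namely RFA1-SEN34, SWE1-MNN5, CTF18-SEC14 and CLB5-THI22. HHF1-HHT1 had 4.60, 4.91 and 5.82 in Fkh1-MYC (MOP) G1, against 0.918, 1.15 and 0.780 in MOP G1 (2.37 ± 0.17), and HHO1-NAN1, at the linker histone gene, was called too. ORC6-SET1 and SPO75-ORC3 were called at origin recognition complex genes.

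A test of the difference between the G1 effect and the unsynchronized effect, in 1 fit over the 4 groups, called 11 gaps higher (0.932% of all segments) and 1 lower (0.225%) with MYC, and with FLAG 0 higher (0.0337%) and 4 lower (0.236%). With FLAG, 177 gaps had an unadjusted p below 0.05 and DESeq2 called 0 higher. The test uses the same libraries as the comparisons it is made of. With MYC, 7 gaps were called higher without Fkh1-MYC (MOP) replicate 2 or without MOP G1 replicate 1. GLC8-ELP6 had the largest difference with MYC. The gap lies on chromosome XIII at 897604 to 898404, between GLC8, a regulator of protein phosphatase 1, and ELP6, a subunit of the Elongator complex. Its signal was 9.07, 9.86 and 7.45 in Fkh1-MYC (MOP) G1, against 1.28, 1.20 and 1.11 in MOP G1 (2.92 ± 0.14). In unsynchronized cells it was 2.07, 2.47 and 2.23 in Fkh1-MYC (MOP), against 1.28, 1.15 and 1.28 in MOP (0.89 ± 0.13). The difference was 2.03 ± 0.18 on the log2 scale (adjusted p = 4.54e-14, edgeR). With FLAG the corresponding difference in GLC8-ELP6 was 0.11 (adjusted p = 0.848, edgeR), where Fkh1-FLAG (FLOP) G1 had 1.87, 1.91 and 1.89, against 0.842, 1.16 and 1.02 in FLOP G1.

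XKS1-SKI6 and YBL086C-BOI1 had the same form. In XKS1-SKI6, between the xylulokinase gene and a gene of the exosome, the signal was 10.8, 12.0 and 11.1 in Fkh1-MYC (MOP) G1, against 1.07, 1.48 and 1.79 in MOP G1 (3.04 ± 0.14), while in unsynchronized cells it was 3.02, 2.71 and 2.82 in Fkh1-MYC (MOP), against 1.33, 1.34 and 1.33 in MOP (1.07 ± 0.11). The difference was 1.97 ± 0.17 with MYC and 0.70 ± 0.14 with FLAG, and the FLAG difference was below the size needed for a call. In YBL086C-BOI1, beside the gene of a polarity protein, the differences were 1.70 ± 0.15 and 0.19 ± 0.12. In TEM1-RPS1B the difference with MYC was 0.09 ± 0.19 and was not called. RFA1-SEN34, at the gene of the single-stranded DNA-binding protein RPA, had a difference of 1.47 ± 0.36, which lost its call without MOP G1 replicate 1 (1.28) or Fkh1-MYC (MOP) replicate 2 (1.35). Its signal was 1.80, 1.74 and 1.77 in Fkh1-MYC (MOP) G1 and 1.52, 1.19 and 1.45 in Fkh1-MYC (MOP), while MOP G1 had 0.544, 0.971 and 0.636 and MOP had 1.00, 1.24 and 1.28. Tagged and control levels both differed there between G1 and unsynchronized cells. In ARB1-PHM8, the gap called lower, MOP G1 had 1.49, 2.20 and 1.89 and MOP had 0.708, 0.525 and 0.843.

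**Figure D4:**
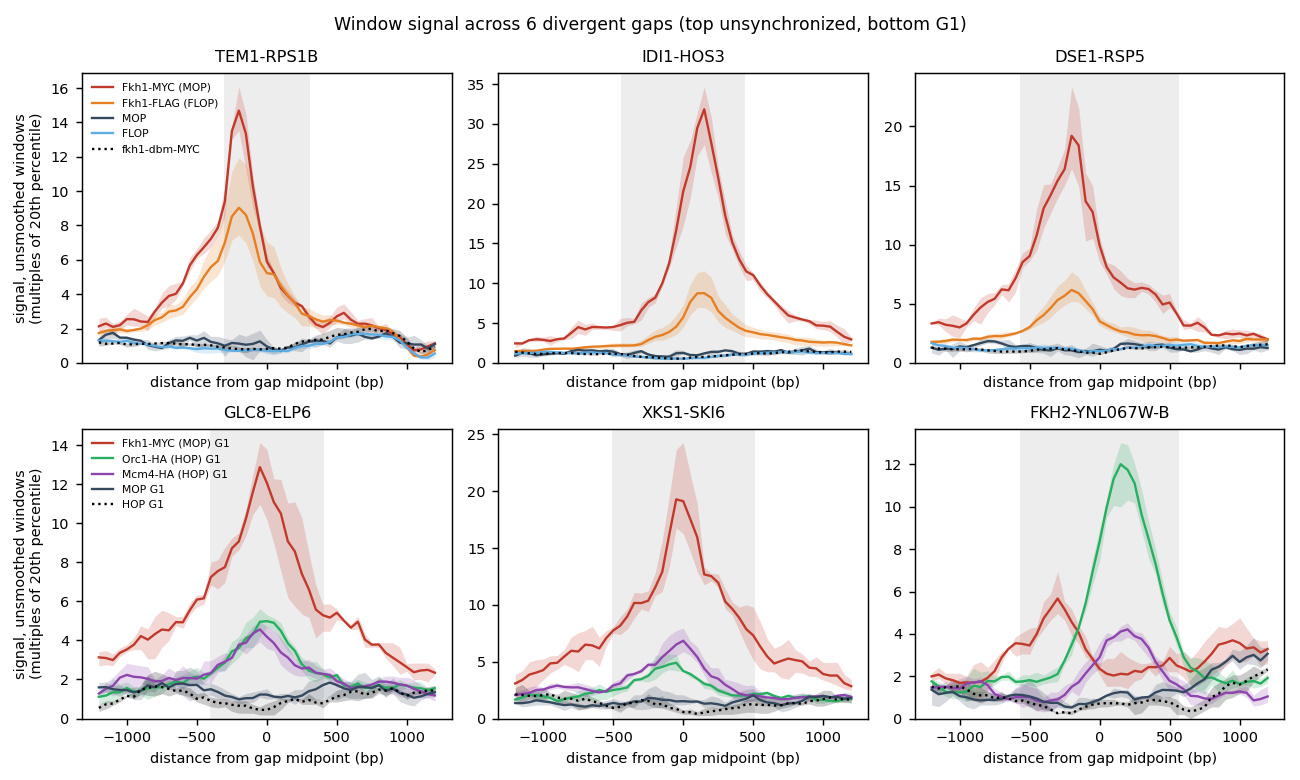
Signal of unsmoothed windows (multiples of the library's 20th percentile, y axis) along 6 divergent gaps against distance from the gap centre (bp, x axis), with unsynchronized groups in the upper and G1 groups in the lower panels, lines for group means, bands from the lowest to the highest library and the gap in grey. In FKH2-YNL067W-B the Fkh1-MYC (MOP) G1 peak and the Orc1 peak stand apart, and in GLC8-ELP6 they lie within 100 bp of each other.

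Orc1 and Mcm4 were compared with the same HOP G1 libraries, so their lists are given side by side and not as independent evidence. Orc1-HA (HOP) G1 was called higher than HOP G1 in 46 divergent gaps (3.94%, against 3.65% of all segments) and lower in 1 (0.0898%), a count that was 1 to 5 when single libraries were left out, with 5 without HOP G1 replicate 1 or Orc1-HA (HOP) G1 replicate 3. Mcm4-HA (HOP) G1 was called higher in 24 (2.05%, against 2.34%) and lower in 7 (0.561%). Divergent gaps thus stood near the share of all segments for both proteins. The share called in convergent gaps was 10.5% for Orc1 and 9.54% for Mcm4, in tandem gaps 5.95% and 4.66%, and in gene bodies 1.56% and 0.329%. These differences in shares were not tested. Within the divergent class the share called for Orc1 went with length, with 1.16% below 300 bp, 0.375% from 300 to below 500 bp, 4.47% from 500 to below 1000 bp and 11.2% at 1000 bp or more. The median length was 859.5 bp in gaps called for Orc1 and 542 bp in those not called, and 783 bp and 545 bp for Mcm4. Of the gaps with a tRNA gene, 8 of 74 were called for Orc1. The gaps called had a median signal of 3.17 in Orc1-HA (HOP) G1, against 0.851 in HOP G1, and 2.13 in Mcm4-HA (HOP) G1, against 0.786 in HOP G1.

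The largest Orc1 changes were in FPT1-PRY2, SNP1-YIL060W and JLP2-REC114, each with a log2 fold change of 3.41. FPT1-PRY2, on chromosome XI at 462697 to 463958, had 7.22, 7.02 and 6.03 in Orc1-HA (HOP) G1 and 0.680, 0.631 and 0.876 in Mcm4-HA (HOP) G1, against 0.933, 0.559 and 0.609 in HOP G1. Its Orc1 signal lay above all controls and its Mcm4 signal overlapped them. SNP1-YIL060W had 6.30, 6.31 and 5.57 in Orc1-HA (HOP) G1, against 0.638, 0.544 and 0.666 in HOP G1. In JLP2-REC114, beside a meiotic recombination gene, both proteins were called, with 3.41 ± 0.19 for Orc1 and 1.67 ± 0.23 for Mcm4.

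Other gaps were called for both Orc1 and Mcm4. MIC19-DCV1, which holds 1 tRNA gene, had 1.91, 1.43 and 1.83 in Orc1-HA (HOP) G1 and 4.03, 3.35 and 3.82 in Mcm4-HA (HOP) G1, against 0.888, 0.916 and 0.990 in HOP G1 (1.02 ± 0.19 for Orc1 and 2.20 ± 0.14 for Mcm4). XKS1-SKI6 had 3.19, 2.95 and 3.31 for Orc1 and 4.72, 3.73 and 3.83 for Mcm4, against 1.11, 0.980 and 0.805 in HOP G1 (1.74 ± 0.13 and 2.11 ± 0.13). MPE1-TOA2, at a gene of the general factor TFIIA, had changes of 2.02 ± 0.22 and 1.94 ± 0.21. In GLC8-ELP6 the changes were 2.27 ± 0.15 and 2.14 ± 0.15. The difference between Orc1 and Mcm4 was not tested.

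SMA2-ORC1 holds the promoter of ORC1, the gene that carries the tag in the Orc1-HA (HOP) strain alone. Its signal was 9.65, 9.32 and 9.10 in Orc1-HA (HOP) G1, against 1.13, 1.09 and 1.06 in HOP G1 (3.19 ± 0.12), and Mcm4-HA (HOP) G1 had 1.22, 1.25 and 1.19. It was not called in any Fkh1 comparison, and the part of the construct in this signal was not tested. MATALPHA2-MATALPHA1 had 6.29, 5.42 and 4.57 in Orc1-HA (HOP) G1, against 0.970, 0.394 and 0.646 in HOP G1 (3.37 ± 0.27). The study's strains are MATa, in which the only α copy is that at the silent locus HML, so reads placed on this gap of the α reference are of sequence shared with HML and cannot be assigned to MAT. The study removed the α genes of MAT from a reference sequence, but the deposited tables hold counts over this gap in every library. Of the gaps called lower for Mcm4, YER138C-YER138W-A lies beside Ty1 genes, which are multi-copy, and had 0.602, 0.608 and 0.616 in Mcm4-HA (HOP) G1, against 2.40, 2.15 and 2.20 in HOP G1.

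Some gaps were called for both Fkh1 and the origin proteins. Of the 128 gaps called for Fkh1-MYC (MOP) G1 and the 46 called for Orc1, 12 were in both, 9.38% of the Fkh1 list and 26.1% of the Orc1 list. For Mcm4 8 were shared, 6.25% and 33.3%. Among the 1168 tested gaps, 128 were called for Fkh1-MYC (MOP) G1, 3.94% for Orc1 and 2.05% for Mcm4. The 84 gaps called for Fkh1-MYC (MOP) in unsynchronized cells shared 5 with the Orc1 list. These 5 were 5.95% of the unsynchronized Fkh1 list and 10.9% of the Orc1 list, where 7.19% of tested gaps were called for unsynchronized Fkh1-MYC (MOP). The size of these overlaps was not tested. Over all 1168 gaps the log2 fold changes of Fkh1-MYC (MOP) G1 and Orc1 had r = 0.063, a description across gaps. GLC8-ELP6, XKS1-SKI6, YBL086C-BOI1 and FKH2-YNL067W-B were called for Fkh1-MYC in G1, Orc1 and Mcm4.

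The position of the peaks differed among these gaps. In GLC8-ELP6 the summit of the ratio to the control began at base 897901 for Fkh1-MYC (MOP) G1, 898001 for Orc1 and 897951 for Mcm4. In XKS1-SKI6 it began at 888351 for Fkh1 and at 888501 for both Orc1 and Mcm4. FKH2-YNL067W-B, the promoter of FKH2, the second forkhead gene, had its Fkh1 summit at 498601, 336 bp from the left gene, and its Orc1 and Mcm4 summit at 499051, 342 bp from the right gene. Its signal was 6.15, 5.52 and 5.597 in Orc1-HA (HOP) G1, against 0.708, 0.737 and 0.486 in HOP G1 (3.25 ± 0.13), and 3.02, 3.10 and 3.35 in Fkh1-MYC (MOP) G1, against 0.969, 0.915 and 0.928 in MOP G1 (1.76 ± 0.15). In IDI1-HOS3 and TEM1-RPS1B, the leading Fkh1 gaps, Orc1 and Mcm4 were not called, and the Orc1 signal of TEM1-RPS1B was 0.539, 0.520 and 0.919, against 0.705, 0.808 and 0.614 in HOP G1.

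**Figure D5:**
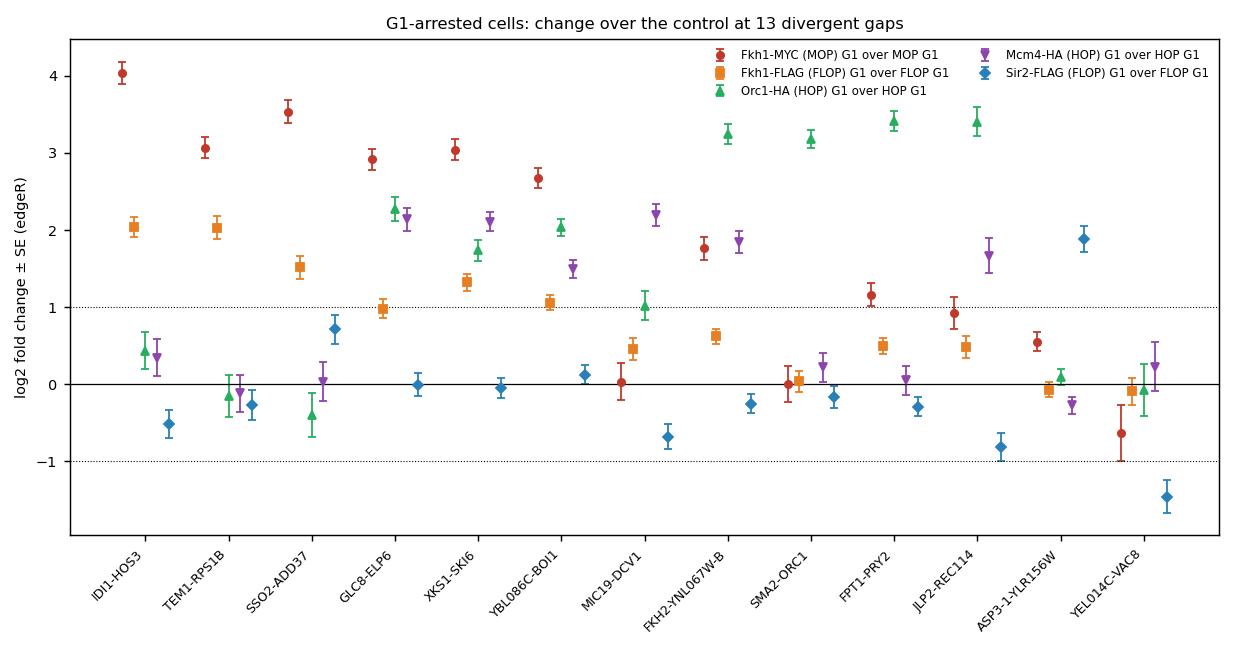
Log2 fold change ± SE (y axis) of 13 divergent gaps (x axis) in the 5 G1 comparisons (Fkh1-MYC, Fkh1-FLAG, Orc1, Mcm4 and Sir2, each against its LexA control in G1). IDI1-HOS3 was called for Fkh1 with both tags and not for Orc1, Mcm4 or Sir2, FPT1-PRY2 is led by Orc1 (3.41), and GLC8-ELP6 is high for Fkh1-MYC (2.92), Orc1 (2.27) and Mcm4 (2.14).

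Sir2-FLAG (FLOP) G1 was compared with the same FLOP G1 libraries as Fkh1-FLAG. It was called higher in 11 divergent gaps (0.741% of all segments) and lower in 9 (2.25%), and this split depends on the scaling, with 9 higher and 14 lower under both TMM and DESeq2 normalization. Without Sir2-FLAG (FLOP) G1 replicate 3, 15 gaps were called lower. RNH203-TAR1, on chromosome XII at 448315 to 454695, lies at the ribosomal DNA, where Sir2 acts in silencing. It had a signal of 168.8, 398.6 and 234 in Sir2-FLAG (FLOP) G1, against 24.9, 24.5 and 30.5 in FLOP G1 (3.32 ± 0.27), with no overlap. The reads of RNH203-TAR1 include sequence repeated in the ribosomal DNA, and its signal was far above background in every group, with 1282 in HOP G1 and 24.99 in untagged anti-MYC. The 4 gaps at the repeated asparaginase genes ASP3, further along the same arm, rose by 1.85 to 1.92. ASP3-1-YLR156W had 5.21, 8.09 and 4.99 in Sir2-FLAG (FLOP) G1, against 1.43, 1.65 and 1.82 in FLOP G1. These copies are near-identical, and their reads cannot be told apart. MATALPHA2-MATALPHA1, which shares its sequence with the silenced locus HML, had 1.56, 1.22 and 1.96 in Sir2-FLAG (FLOP) G1, against 0.519, 0.781 and 0.501 in FLOP G1 (1.36 ± 0.23), and was singled out after its values were seen.

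Gaps that fell with Sir2 included some that the FLAG control alone had raised. YLR012C-GAT3 had 3.13, 3.96 and 4.25 in Sir2-FLAG (FLOP) G1, against 6.76, 7.90 and 7.07 in FLOP G1 (−1.06 ± 0.13), and AIR1-THS1 had 1.80, 1.63 and 2.58 in Sir2-FLAG (FLOP) G1, against 4.63, 5.11 and 3.73 in FLOP G1 (−1.39 ± 0.18). Both were among the gaps called higher in FLOP than in untagged anti-FLAG, and so were ARB1-PHM8 (−1.29 ± 0.14) and PDI1-YCL042W (−1.10 ± 0.17). The strongest fall was in YEL014C-VAC8, with 0.477, 0.361 and 0.463 in Sir2-FLAG (FLOP) G1, against 0.895, 1.11 and 0.953 in FLOP G1 (−1.46 ± 0.21). In all, 0.771% of divergent gaps were called lower, against 3.60% of tandem and 14.4% of convergent gaps, a difference in shares that was not tested.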

How the data were processed

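Libraries were ChIP-seq of Saccharomyces cerevisiae, 3 per group in 20 groups. Per the labels and the study's methods, the authors demultiplexed paired-end reads, aligned them to the yeast genome (Bowtie2), discarded duplicates (SAMtools) and computed coverage over 50 bp windows (Bedtools). The deposited values are these raw counts, 1 table per library, in which a read adds to each window that it touches, so that summed counts exceed the number of reads. The study took its genome sequence from the Saccharomyces Genome Database, dated and without a release number, and window positions were read as R64 coordinates. Nothing in the sources states that replicates came from separate cultures, so p-values measure only the spread between libraries.

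Gaps were defined from the R64 gene table, with strand taken from the systematic names. Smoothed signal used a moving median over 10 windows divided by the 20th percentile. For tests, unsmoothed counts were summed over all 8913 gaps and gene bodies of 200 bp or more, segments with 10 counts in at least 3 libraries were kept, libraries were scaled by the 20th percentile, and edgeR 4.0.16 (quasi-likelihood test, R 4.3.3) was run for each pair of groups with Benjamini-Hochberg adjustment over all segments tested. Replicate libraries differed by more than counting noise (chi-square per degree of freedom 3.02 to 14.8). Errors beside fold changes are standard errors derived from the F statistic. Gaps were named by a rule: up to 8 called gaps with the largest change that held in all 9 library pairs of a comparison, and the gaps of the gene lists. Separation of the libraries in a gap picked by size of change is thus part of the rule and no support for the call. Not all gaps that met this rule are reported here. The gaps and lists were chosen with earlier results of these data known. Alternatives tried were TMM, DESeq2 1.42.0, no count filter, a replicate block, all libraries in 1 fit, the central 4 windows and leaving out each library. For the median signal, gaps with an annotated noncoding gene were left out, and other annotated features were not used here. Summits are the windows with the highest ratio of tested to control signal taken from group means of unsmoothed windows, and profiles are medians of such windows. No genome sequence was used.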

Additional observations from a re-analysis of the deposited data

Results flagged for a closer look

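The Fkh1 effect of 16 divergent gaps differed between G1 and unsynchronized cells by a test of the difference itself, given here as the G1 log2 fold change minus the unsynchronized one. Of all segments, 0.932% were called higher and 0.225% lower with MYC, and 0.0337% and 0.236% with FLAG, so that these counts are near the background. With Fkh1-MYC it was higher in G1 in GLC8-ELP6 (2.03), XKS1-SKI6 (1.97), YBL086C-BOI1 (1.70), YAR035C-A-SWH1 (1.65), RSM18-JHD1 (1.62), RFA1-SEN34 (1.47), HTS1-ARP7 (1.29), SPO22-HOP1 (1.25), YFR018C-FAB1 (1.22), MET5-IML1 (1.17) and PTH4-SKM1 (1.07), and lower in ARB1-PHM8 (−1.41). With Fkh1-FLAG it was lower in G1 in YGL007C-A-BRP1 (−1.32), YGR050C-FMP48 (−1.14), ALG5-NEW1 (−1.06) and SLM4-ECM33 (−1.06). The calls of YAR035C-A-SWH1, RSM18-JHD1, RFA1-SEN34, ARB1-PHM8, YGL007C-A-BRP1, ALG5-NEW1 and SLM4-ECM33 were each lost under at least 1 alternative. SPO22-HOP1, YFR018C-FAB1, MET5-IML1 and PTH4-SKM1 were not followed gap by gap under the alternatives, so whether their calls held is not known. In YAR035C-A-SWH1, a gap of 201 bp, the signal stayed between 0.553 and 1.15 in all Fkh1-MYC (MOP) libraries, G1 and unsynchronized, while MOP G1 had 0.710, 1.03 and 0.636 and MOP had 0.909, 0.946 and 1.48. YGR050C-FMP48 had 1.65, 1.85 and 1.69 in Fkh1-FLAG (FLOP) G1, against 1.02, 1.02 and 0.944 in FLOP G1, and 2.05, 2.28 and 2.52 in Fkh1-FLAG (FLOP), against 0.624, 0.621 and 0.654 in FLOP. Tagged and control signals in YGR050C-FMP48 both differed between G1 and unsynchronized cells.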

How the results depend on the processing

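No named gap reversed direction under any alternative, and of their values recomputed under the alternatives 28 lost the call while 1171 did not; DESeq2 gave no adjusted p for 1 other. The lost calls were those of RNH203-TAR1 in HOP (−0.81 in the central 4 windows), of YAR035C-A-SWH1, RSM18-JHD1, RFA1-SEN34 and ARB1-PHM8 in the MYC difference between G1 and unsynchronized cells, and of YGL007C-A-BRP1, ALG5-NEW1 and SLM4-ECM33 in the FLAG difference. The main count of each comparison stayed within 1.5 times under TMM, DESeq2, no count filter and 1 fit of all libraries. Counting only the central 4 windows gave 31 gaps for Fkh1-FLAG (FLOP) G1 (18 otherwise), and for the G1 difference 7 with MYC (12 otherwise) and 11 with FLAG (4 otherwise). Gaps called lower were 10 (TMM) and 15 (central windows) for Fkh1-MYC (MOP) G1, against 6, and 37 (central windows) for Sir2, against 9. The cause of these changes was not tested. The mean over gaps, set against the median over all segments, left 9 groups below 0, against 19 with the median over gaps. The 2 summaries are not alike.

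Leaving out 1 library gave 80 to 97 gaps for Fkh1-MYC (MOP), 40 to 59 for Fkh1-FLAG (FLOP), 100 to 113 and 56 to 75 against fkh1-dbm-MYC and fkh1-dbm-FLAG, 135 to 150 for Fkh1-MYC (MOP) G1 (128 with all libraries), 13 to 21 for Fkh1-FLAG (FLOP) G1, 44 to 54 for Orc1, 22 to 27 for Mcm4 and 8 to 16 for Sir2. It gave 0 to 1 for MOP (1 without untagged anti-MYC replicate 3), 16 to 20 for FLOP and 1 to 3 for HOP (1 without HOP replicate 2). The G1 difference gave 8 to 18 gaps with MYC, and 1 to 7 with FLAG, with 7 without Fkh1-FLAG (FLOP) replicate 1, 1 without its replicate 3, 7 without Fkh1-FLAG (FLOP) G1 replicate 2 and 2 without its replicate 3.

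Replicate numbers did not pair the libraries (correlations of −0.318 to 0.18). A fit with a replicate block called 85, 47, 105, 65, 132, 17, 47, 24 and 11 gaps higher in the 9 comparisons of Fkh1 (MYC, FLAG, the mutants, then G1), Orc1, Mcm4 and Sir2, 11 and 4 for the G1 differences, and 0, 18 and 2 for MOP, FLOP and HOP. In this fit the MYC difference of YAR035C-A-SWH1 was 1.56 (adjusted p = 0.0515, edgeR), and no other gap picked by size of change lost its call. In the shallowest library the 20th percentile lay at 6 counts per window, and the effect of depth on the calls was not tested.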
